A study of Mus musculus with 6 samples.

Results

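T cells in a transplanted organ are steered by pairs of surface molecules, and the transcripts of 10 genes of such pairs were examined in mouse heart grafts. Of these genes 5 encode ligands, which graft cells, macrophages, dendritic cells and B cells can display: Cd274 (PD-L1), Pdcd1lg2 (PD-L2), Cd80, Cd86 and Icosl. The other 5 encode receptors carried mainly by T cells: Pdcd1 (PD-1), Lag3, Ctla4, Cd28 and Icos. The genes were taken by name, all 10 had a probe set, and together they had 17 probe sets among those of the 12393 genes measured. Total graft RNA was hybridised to 1 array in each of 6 groups. The allografts, hearts placed across a donor-recipient difference, came from mice given CsA (cyclosporin A, 15 mg/kg every 24 h), BH4 (tetrahydrobiopterin, 50 mg/kg every 8 h), ABH4 (4-amino tetrahydrobiopterin, 50 mg/kg every 8 h) or NIL (N-imino ethyl-L-lysine, 5 mg/kg every 8 h), and from untreated mice. The syngraft, a heart placed without such a difference, also came from untreated mice. The labels used here do not state the strains, ages and genotypes, the day of removal, or how many grafts an array represents. With 1 array per group there is no replicate, so no difference below could be set against a spread between grafts and none has a p-value.

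CD28 on a T cell gives the second signal that, beside the T cell receptor, starts activation when it meets CD80 or CD86 on an antigen-presenting cell. CTLA-4 appears after activation, binds the same ligands and restrains the cell. PD-1, engaged by PD-L1 or PD-L2, and LAG-3, which binds MHC class II, restrain cells that have already been activated, while ICOS, engaged by ICOSL, sustains them. PD-L1 is induced by interferon-gamma on many cell types, the endothelium included, and cyclosporin A blocks calcineurin and through it the NFAT factors that switch on genes of activated T cells.

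By the order of RefSeq protein-coding genes in GRCm38.p6, Cd274 and Pdcd1lg2 are next to each other, and so are Cd28, Ctla4 and Icos, in that order. RefSeq promoter windows were at hand for 6 of the 10 genes (Cd274, Pdcd1lg2, Pdcd1, Ctla4, Icosl and Cd80), and the 250 bases before the gene start were searched on both strands. The letters GGAAAA, searched here as a form of the NFAT core, occurred in the windows of Pdcd1lg2 and Ctla4, against 20.4% of all 32851 windows of that length. The shorter GGAAA was not searched, and the Cd274 window printed below holds it unmarked. TTCNNNGAA, the gamma-activated site, occurred in none of the 6, against 7.02% of all windows. The interferon-stimulated response element (2.98% of all windows) and the kappaB site (1.41%), whose letters can share bases with the NFAT core, were not found in the 6 either. The windows of 4 genes are printed because their signals below behave differently: Cd274 and its neighbour Pdcd1lg2, the receptor Ctla4, and Icosl. By the brightest probe sets, Icosl was the ligand that differed least between the untreated allograft and the syngraft. Capitals mark GGAAAA on either strand.
Cd274 promoter, GRCm38.p6 chr19:29367188-29367437, plus strand: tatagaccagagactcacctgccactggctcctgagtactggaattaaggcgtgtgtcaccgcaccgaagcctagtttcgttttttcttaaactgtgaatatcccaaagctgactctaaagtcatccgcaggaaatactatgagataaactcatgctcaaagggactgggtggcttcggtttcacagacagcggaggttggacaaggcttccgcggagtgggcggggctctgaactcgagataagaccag
Pdcd1lg2 promoter, GRCm38.p6 chr19:29410669-29410918, plus strand: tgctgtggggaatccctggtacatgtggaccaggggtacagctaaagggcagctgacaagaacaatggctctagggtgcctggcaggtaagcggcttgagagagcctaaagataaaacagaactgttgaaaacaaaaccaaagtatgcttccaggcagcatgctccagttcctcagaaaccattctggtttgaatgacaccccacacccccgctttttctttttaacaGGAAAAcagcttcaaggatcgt
Ctla4 promoter, GRCm38.p6 chr1:60908775-60909024, plus strand: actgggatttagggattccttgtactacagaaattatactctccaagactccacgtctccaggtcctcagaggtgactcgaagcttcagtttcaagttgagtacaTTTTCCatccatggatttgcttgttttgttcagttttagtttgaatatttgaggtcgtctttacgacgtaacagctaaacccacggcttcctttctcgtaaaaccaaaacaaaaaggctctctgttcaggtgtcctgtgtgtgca
Icosl promoter, GRCm38.p6 chr10:78069118-78069367, plus strand: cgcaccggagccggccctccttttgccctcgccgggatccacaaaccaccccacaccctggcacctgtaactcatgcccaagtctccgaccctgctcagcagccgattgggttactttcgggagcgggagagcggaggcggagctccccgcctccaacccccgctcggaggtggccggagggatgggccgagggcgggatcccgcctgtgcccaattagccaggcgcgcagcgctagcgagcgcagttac
The Icosl window was 68.8% G and C and held 23 CpG, against 50.4% and 11 for Cd274, 48.4% and 3 for Pdcd1lg2, and 42.4% and 7 for Ctla4. The median G and C content of all windows was 52.4%. A match of letters is a description of the window and not a site shown to be bound.

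Signals are in the arrays' linear units after each array was rescaled to a common median. Values below 34.8, the 30th percentile of all values, are called at the floor, since they have no usable order, and a fold difference against the floor is given as "at least". The 6 cardiomyocyte markers were above the floor on all 6 arrays, with summed signals of 23756 to 31400. The BH4 array stood apart: the summed signal of 7 salivary gland genes was 11581.5 there, against 132 to 419 on the other 5 arrays. The 3' to 5' signal ratio of Actb lay between 1.04 and 1.13 and that of Gapdh between 0.788 and 0.876. The deposited medians of the arrays lay between 77.7 and 88.5, and that of the untreated allograft was 0.19 lower than that of the syngraft on the log2 scale before rescaling.

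**Figure D1:**
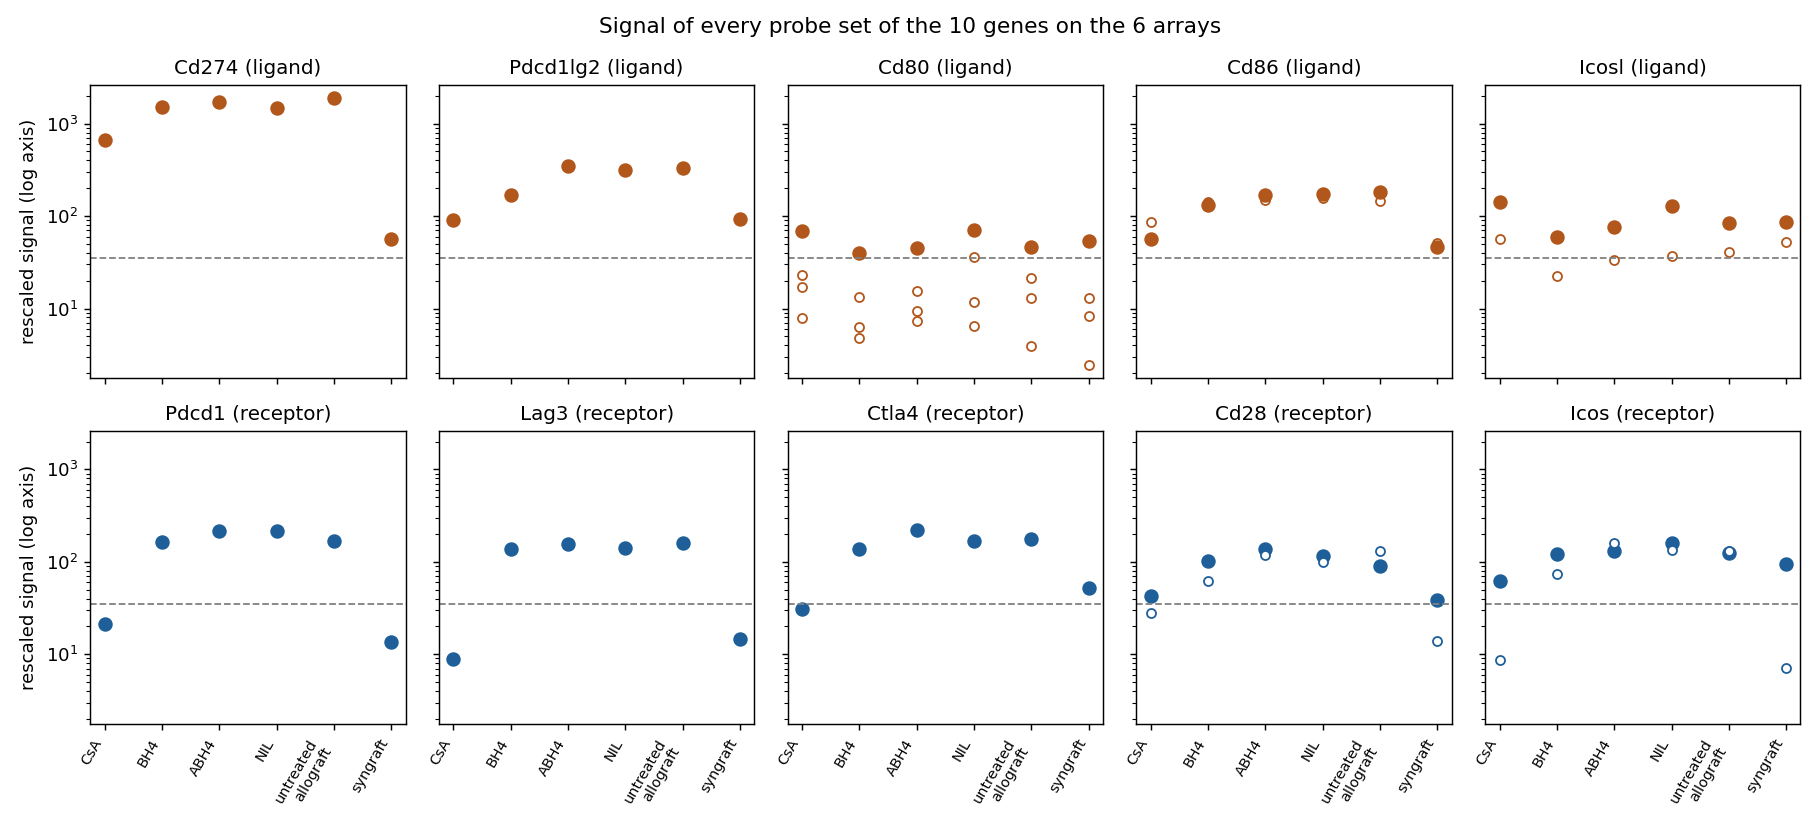
Rescaled signal (log axis) of the 17 probe sets of the 10 genes on each array, ligands in the upper row and receptors in the lower. Filled points are the brightest probe set of a gene, open points its other probe sets, and the dashed line the floor of 34.8. Cd274 had a signal of 663 on the CsA array and 56.4 on the syngraft array, while Pdcd1 and Lag3 were at the floor on both.

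Of the 5 ligands, Cd274 differed most between the untreated allograft and the syngraft. Its signal was 663 with CsA, 1512 with BH4, 1723 with ABH4, 1479 with NIL, 1882 in the untreated allograft and 56.4 in the syngraft. All 5 allografts were thus at least 2-fold above the syngraft, which was true of 1.32% of all genes and of no other gene among the 10.

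Pdcd1lg2, which encodes the second ligand of PD-1, had signals of 91.6 with CsA, 170.4 with BH4, 346 with ABH4, 312 with NIL, 335 in the untreated allograft and 92.5 in the syngraft. Its CsA value lay beside the syngraft value, and BH4 stood between these arrays and the other allografts. Cd86, one of the 2 ligands of CD28 and CTLA-4, had signals of 56.3 with CsA, 132 with BH4, 171 with ABH4, 172 with NIL, 182 in the untreated allograft and 46.7 in the syngraft. Its other probe set read 86.3, 141, 148, 158, 144 and 51.3 on the same arrays. Both probe sets put CsA between the syngraft and the other 4 allografts.

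Cd80, the other ligand of CD28 and CTLA-4, was close to the floor throughout, with signals of 68.2 with CsA, 40.1 with BH4, 45.6 with ABH4, 71.4 with NIL, 46.6 in the untreated allograft and 54.0 in the syngraft. Of its other 3 probe sets, 2 were at the floor on all 6 arrays and 1 on 5 of them. Cd80 is therefore barely measured here. Icosl had signals of 141 with CsA, 59.7 with BH4, 75.7 with ABH4, 128 with NIL, 85.2 in the untreated allograft and 85.4 in the syngraft. Its other probe set read 56.2 with CsA, 37.0 with NIL, 40.9 in the untreated allograft and 52.7 in the syngraft, and was at the floor with BH4 and ABH4. CsA was the highest array on both, whereas NIL was second on the one and below the untreated allograft on the other. The summed signal of 4 B cell markers, cells that carry ICOSL, was 168 with CsA, 114 with BH4, 133 with ABH4, 177 with NIL, 128 in the untreated allograft and 208 in the syngraft. Of these 4 markers 0 were at the floor on the syngraft array and 3 on the BH4 array, and the part of B cells in the Icosl values was not tested.

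Among the receptors, Pdcd1 had signals of 164 with BH4, 216 with ABH4, 215 with NIL and 168 in the untreated allograft, but none above the floor with CsA or in the syngraft. Lag3 had signals of 137 with BH4, 154 with ABH4, 141 with NIL and 158 in the untreated allograft, but likewise none above the floor with CsA or in the syngraft. Pdcd1 and Lag3 were thus above the floor on the same 4 arrays. Ctla4 was at the floor with CsA, and had signals of 136 with BH4, 219.7 with ABH4, 168 with NIL, 176 in the untreated allograft and 52.5 in the syngraft. It was the only receptor gene at the floor with CsA and above it in the syngraft on its brightest probe set.

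Cd28, the costimulatory receptor of resting T cells, had signals of 43.0 with CsA, 102 with BH4, 137 with ABH4, 116 with NIL, 89.9 in the untreated allograft and 38.9 in the syngraft. Its other probe set read 61.2 with BH4, 117 with ABH4, 101 with NIL and 132 in the untreated allograft, but stayed at the floor with CsA and in the syngraft. CsA and the syngraft were the lowest arrays on both, but the order of the remaining 4 was not the same. Icos had signals of 62.5 with CsA, 120.5 with BH4, 129.6 with ABH4, 158 with NIL, 123 in the untreated allograft and 94.2 in the syngraft on its brightest probe set. The other probe set read 73.8, 159, 134 and 129 on the BH4, ABH4, NIL and untreated allograft arrays, but stayed at the floor with CsA and in the syngraft. The brightest Icos probe set thus had a signal in the syngraft that the other did not have.

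By design, the untreated allograft has a donor-recipient difference and the syngraft has none. Alloimmunity, strain and single-graft differences cannot be told apart in this comparison. In the untreated allograft 7 of the 10 genes were at least 2-fold higher, against 6.87% of all 12393 genes, and 0 were at least 2-fold lower, against 4.81%. On the deposited values without rescaling the split of all genes was 633 higher and 860 lower, in place of 852 and 596, and the count of the 10 genes stayed at 7. Cd274 was 33.4-fold higher, Cd86 3.91-fold and Pdcd1lg2 3.63-fold. Pdcd1 was at least 4.82-fold, Lag3 at least 4.55-fold, Ctla4 3.35-fold and Cd28 2.31-fold higher. The median log2 difference was 1.86 for the 5 ligands and 1.74 for the 5 receptors, against 0.00 for all genes. The log2 differences of the remaining 3 genes were 0.39 for Icos (at least 1.89 by its other probe set), -0.00 for Icosl (-0.36 by its other probe set) and -0.21 for Cd80. The values of Pdcd1 and Lag3 are bounds set by the floor (2.27 and 2.18 on the log2 scale, and 3.63 and 3.42 with the floor at the 10th percentile), so the upper end of the receptors is not known.

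T cell markers moved with the receptors. The summed signal of 8 T cell genes was 1975 in the untreated allograft and 217 in the syngraft, where 7 of the 8 were at the floor. Cd3g, a chain of the T cell receptor complex, was at least 14.7-fold higher in the untreated allograft. In whole-graft RNA, more T cells and more transcript per T cell cannot be told apart. The macrophage and monocyte list summed to 9614 in the untreated allograft and 8887 in the syngraft, with 3 of 9 genes at least 2-fold higher, 1 lower and a median log2 difference of 0.04. Among them the activating Fc receptor Fcgr1 was 3.69-fold higher and the scavenger receptor Msr1 5.80-fold, while the mannose receptor Mrc1 was 2.31-fold lower. The dendritic cell list had 1 of 7 genes higher and 1 lower (median 0.04). Foxp3, the defining factor of regulatory T cells, which carry CTLA-4 and ICOS at high levels, was at the floor in the untreated allograft and had a signal of 53.9 in the syngraft. Of the 4 genes of the regulatory T cell list 1 was at least 2-fold higher in the untreated allograft (Tnfrsf18, 3.07-fold) and 0 were lower, Il2ra was 1.52-fold higher, Ikzf2 was at the floor on all arrays, and the median log2 difference was 0.30. Ifng, the inducer of PD-L1, was at least 16.8-fold higher and Irf1, a transcription factor in that induction, 5.43-fold. The part of these cell types and inducers in the differences of the 10 genes was not tested.

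With CsA, the comparison with the untreated allograft asks how the pairs looked under calcineurin inhibition. At least 2-fold lower with CsA were 7 of the 10 genes, against 4.06% of all genes, and 0 were at least 2-fold higher, against 3.21%. Without rescaling, all genes split into 599 higher and 327 lower in place of 398 and 503, and 6 of the 10 genes were lower. Cd28 was the gene that changed sides, with a log2 difference of -1.07 after rescaling and -0.88 before. Ctla4 was at least 5.05-fold, Pdcd1 at least 4.82-fold and Lag3 at least 4.55-fold lower, all at the floor with CsA. Pdcd1lg2 was 3.66-fold lower, Cd86 3.24-fold (1.67-fold by its other probe set) and Cd274 2.84-fold. The log2 difference of Icos was -0.98, and at most -1.89 by its other probe set. The ligands had a median log2 difference of -1.51. The receptors' median was at most -2.18, a bound set by the floor, since Lag3, Pdcd1 and Ctla4 were at it with CsA, and it was -0.92 with the floor at the 50th percentile. Against the direction of the others, the signals of Icosl and Cd80 were 1.66-fold and 1.46-fold higher with CsA, short of 2-fold. Icosl thus differed in sign from its receptor Icos.

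The comparison of CsA with the syngraft shows what was left under the drug. It shares both arrays with the comparisons above, so its values follow from theirs. Of the 10 genes 1 was at least 2-fold higher with CsA, against 2.28% of all genes, and 0 were lower, against 1.42%. The one was Cd274, at 11.8-fold. The other ligands differed by -0.01 (Pdcd1lg2), 0.27 (Cd86), 0.34 (Cd80) and 0.72 (Icosl) on the log2 scale. Of the receptors, Pdcd1 and Lag3 were at the floor on both arrays, Cd28 differed by 0.14, Icos by -0.59 and Ctla4 by at most -0.59, since it was at the floor with CsA. So with CsA the signal of the ligand Cd274 stayed above that of the syngraft while that of its receptor Pdcd1 was not measurable on either array.

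Beside these values, Ifng had signals of 102 with CsA and 586 in the untreated allograft, and none above the floor in the syngraft. Irf1 had signals of 1553 with CsA, 2994 in the untreated allograft and 551 in the syngraft, which puts CsA 1.93-fold below the one and 2.82-fold above the other. The 8 T cell genes summed to 290 with CsA, against 1975 in the untreated allograft and 217 in the syngraft, with 4 of the 8 at the floor under CsA, Cd3d and Cd3e among them. Cd3g was 8.10-fold lower with CsA than in the untreated allograft. Macrophage markers summed to 8820 with CsA, with Msr1 5.02-fold and Fcgr1 2.17-fold lower than in the untreated allograft, the mannose receptor Mrc1 2.04-fold higher, the other 6 of 9 genes within 2-fold, and a median log2 difference of -0.15. Endothelial markers summed to 1169 with CsA, 844 in the untreated allograft and 1430 in the syngraft, with none of the 6 at the floor on these arrays. The summed signal of 6 fibroblast markers was 19117 with CsA, 3018 in the untreated allograft and 22735 in the syngraft, and all 6 genes were at least 2-fold higher with CsA than in the untreated allograft. The 4 NK cell genes summed to 308 with CsA, 620 in the untreated allograft and 185 in the syngraft. Klrk1 alone had signals of 175, 443 and 84.1 on these arrays. Of the 4 genes 1 was at least 2-fold lower with CsA than in the untreated allograft, and 0 were higher. The part of these cells in the differences was not tested.

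**Figure D2:**
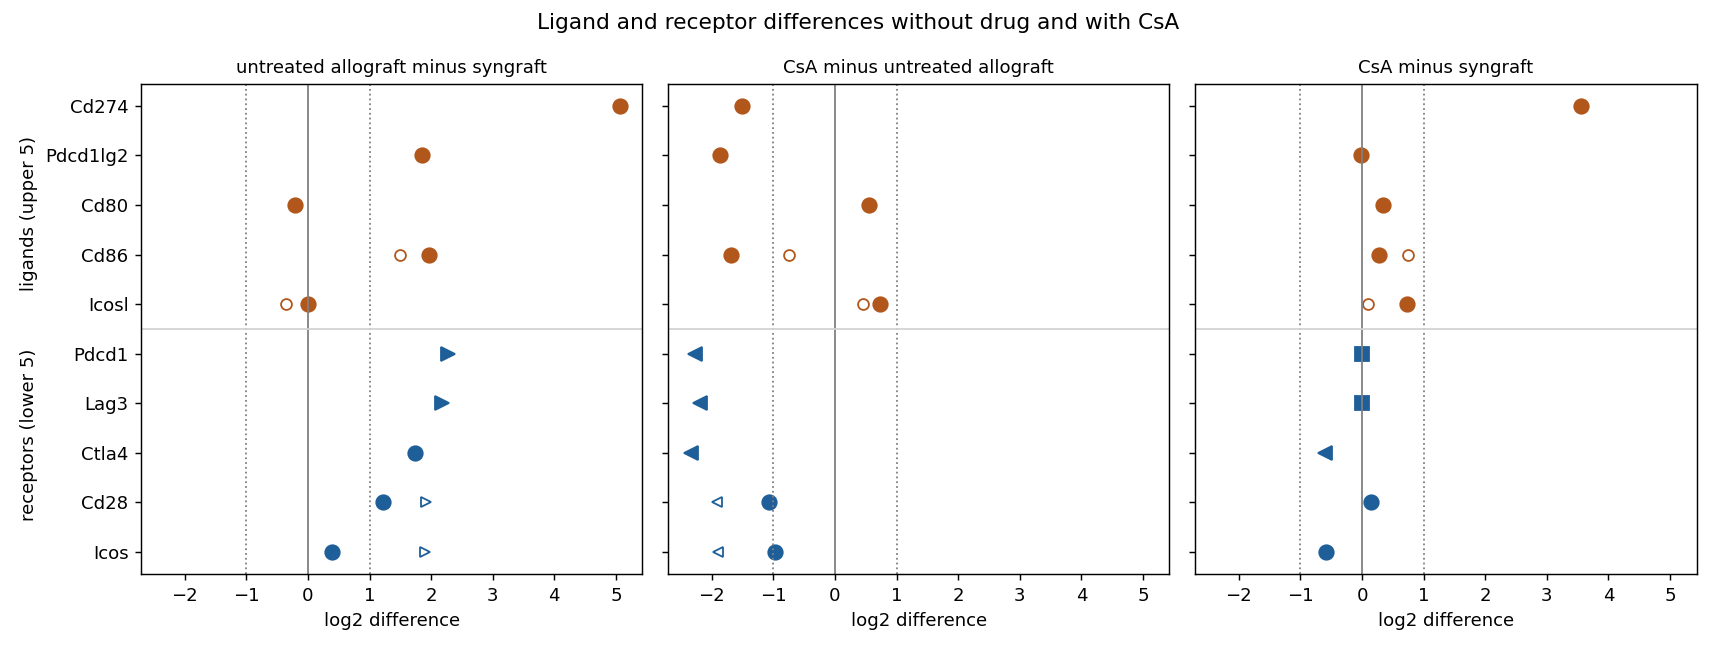
Log2 difference of each gene for untreated allograft minus syngraft, CsA minus untreated allograft and CsA minus syngraft, with 1 array per group. Circles are measured differences, triangles bounds against the floor that point the way the value could go further, squares genes at the floor on both arrays, and open symbols other probe sets (those at the floor on both arrays are not drawn). Dotted lines mark 2-fold. In the right panel Cd274 (3.56) is the one gene beyond 2-fold.

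Over all arrays, 6 of the 10 genes had CsA and the syngraft both at least 2-fold below the lowest of the other 4 arrays, against 1.44% of all genes. These were the ligands Cd274 and Cd86 and the receptors Pdcd1, Lag3, Ctla4 and Cd28. This grouping of arrays was chosen after the values were seen. With the floor at the 50th percentile 1 of the 10 kept it. By their other probe sets Cd86 and Cd28 fell short of this pattern, while Icos met it. With the second probe sets 5 of the 10 genes had it.

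The related costimulatory and inhibitory genes, listed with earlier results of these data known, gave a partly similar picture for receptors and a mixed one for ligands. Of 12 other T cell receptors of this kind 6 were at least 2-fold higher in the untreated allograft than in the syngraft and 0 lower (median log2 difference 0.99). With CsA 6 of the 12 were lower than in the untreated allograft and 0 higher (median -0.99). Cd96 went the other way, short of 2-fold, with signals of 87.4 with CsA, 56.6 in the untreated allograft and 69.4 in the syngraft. Cd40lg had a signal of 45.6 with CsA and was at the floor in the untreated allograft and the syngraft. Havcr2, which encodes the inhibitory receptor TIM-3, was at least 4.23-fold higher in the untreated allograft than in the syngraft. Tnfrsf18, which encodes the costimulatory receptor GITR, was at least 4.92-fold lower with CsA than in the untreated allograft, and Cd2, an adhesion and costimulation receptor, at least 3.44-fold lower. Of 14 other ligands 7 were higher and 2 lower in the untreated allograft than in the syngraft (median 0.97). The galectin Lgals3 was 4.62-fold and Cd40, the antigen-presenting cell's partner of CD40 ligand, 3.46-fold higher. Cd276, which encodes B7-H3, was 2.45-fold lower and Tnfsf4, which encodes OX40 ligand, at least 2.37-fold lower. With CsA 3 of the 14 were lower than in the untreated allograft, led by Vsir (VISTA, 3.06-fold) and Cd48 (2.41-fold), and 2 were higher, Cd276 (2.21-fold) and Tnfsf4 (at least 2.10-fold). The B7-family ligands Cd274 and Cd276 thus lay on opposite sides in both comparisons.

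Of 12 genes of signalling just below these receptors, 6 were at least 2-fold higher in the untreated allograft than in the syngraft and 0 lower (median 1.09). Lat, the adaptor of the T cell receptor, was at least 8.44-fold and Lcp2 (SLP-76) 6.16-fold higher. With CsA 4 of the 12 were lower than in the untreated allograft and 0 higher, among them Lat (at least 8.44-fold) and Prkcq (protein kinase C theta, at least 3.98-fold). Ptpn11, which encodes SHP-2, the phosphatase that PD-1 recruits and which most cells express, differed by -0.38 in the untreated allograft against the syngraft and by 0.04 with CsA on the log2 scale. Zap70, of the same list as Lat, differed by -0.34 and -0.00 in the same 2 comparisons, so by these probe sets not all of the signalling genes moved with the receptors. Its signal was 334 in the syngraft and 264 with CsA, where Lat was at the floor. Whether the Zap70 probe set follows T cells was not tested. Of 10 genes that induce the ligands, 5 were higher in the untreated allograft and 0 lower, and 2 were lower with CsA (Ifng, 5.72-fold, and Tnf, 2.57-fold).

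**Figure D3:**
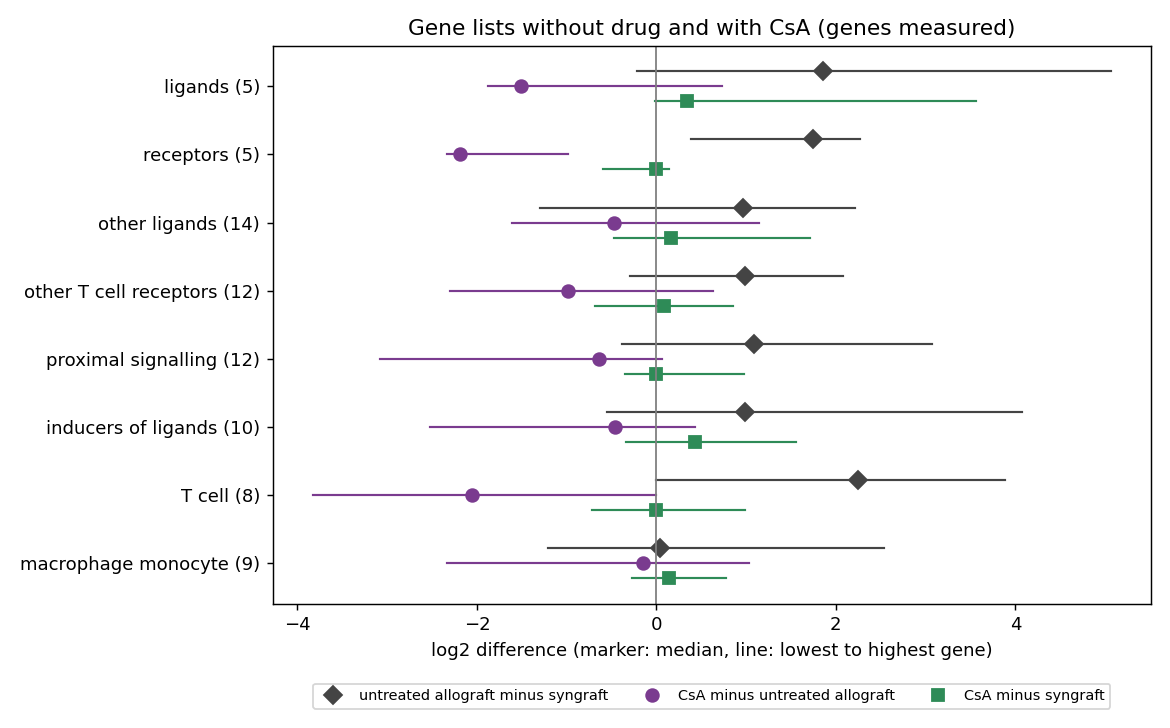
Median log2 difference (markers) and the lowest to highest gene (lines) of each gene list in 3 comparisons, with the number of genes measured in brackets and genes at the floor on 1 array entered at their bound. Receptors and T cell markers have a median of 0.00 for CsA minus syngraft, where genes at the floor on both arrays were entered as 0. The 0.00 is thus set by the floor and is not a measured equality. T cell markers ranged from -0.72 to 0.98, and the receptor median was -0.59 with a floor at the 10th percentile. The line of the ligands reaches 3.56, the value of Cd274.

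The drugs that act on nitric oxide synthesis were each compared with the same untreated allograft array, so the 3 comparisons share it. Nitric oxide synthases need BH4 as a cofactor. ABH4 is its 4-amino analog and antagonist, and NIL blocks the inducible synthase. By the brightest probe sets, none of the 10 genes was 2-fold apart from the untreated allograft with any of them. The shares of all genes beyond 2-fold were 1.54% higher and 0.42% lower with BH4, 0.694% higher and 0.282% lower with ABH4, and 1.33% higher and 0.791% lower with NIL. Without rescaling, the split with NIL was 269 higher and 53 lower, in place of 165 and 98.

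With BH4 the ligands had a median log2 difference of -0.47 and the receptors of -0.03. Pdcd1lg2 was furthest from the untreated allograft, 1.97-fold lower. Icosl differed by -0.51, Cd86 by -0.47, Cd274 by -0.32 and Cd80 by -0.22 on the log2 scale, so all 5 ligands were below the untreated allograft by these probe sets. The other probe set of Cd86 gave -0.04, and Cd80 was close to the floor. Among receptors, Ctla4 differed by -0.37, Lag3 by -0.20, Pdcd1 by -0.03, Icos by -0.03 and Cd28 by 0.18. The other probe sets of Cd28 and Icos gave -1.11 and -0.81, so that Cd28 had no settled sign. T cell markers had a median of -0.40 with 0 of 8 beyond 2-fold, and ranged from -0.88 to 0.46. Cd3g was 1.31-fold lower, whereas Cd6 (164 against 119 in the untreated allograft) and Cd8a (227 against 173) alone were higher. Ifng was 1.46-fold lower. Fibroblast markers summed to 13930 with BH4, against 3018 in the untreated allograft. Salivary gland genes were on this array in the amounts given above, and their part in the values was not tested.

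With ABH4 the ligands had a median of -0.09 and the receptors of 0.32. Cd28 had the highest value, 0.61, but -0.17 by its other probe set. Pdcd1 differed by 0.36, Ctla4 by 0.32 and Cd274 by -0.13. With NIL the ligands had a median of -0.08 and the receptors of 0.36. Cd80 and Icosl differed by 0.61 and 0.58 on the log2 scale, though Icosl gave -0.14 by its other probe set and Cd80 is close to the floor. Icos, Cd28 and Pdcd1 each differed by 0.36 and Cd274 by -0.35. By the other probe sets Icos differed by 0.05 and Cd28 by -0.39 with NIL. The sign of the receptor median with NIL thus depended on the probe sets used. T cell markers had medians of 0.09 with ABH4 and 0.10 with NIL, and 0 of 8 were beyond 2-fold with either. Fibroblast markers summed to 6784 with ABH4 and 2977 with NIL, against 3018 in the untreated allograft. Under all 3 drugs Cd274 had log2 differences between -0.35 and -0.13 from the untreated allograft, and its signals stayed 30.6-fold with ABH4, 26.8-fold with BH4 and 26.2-fold with NIL above the syngraft.

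**Figure D4:**
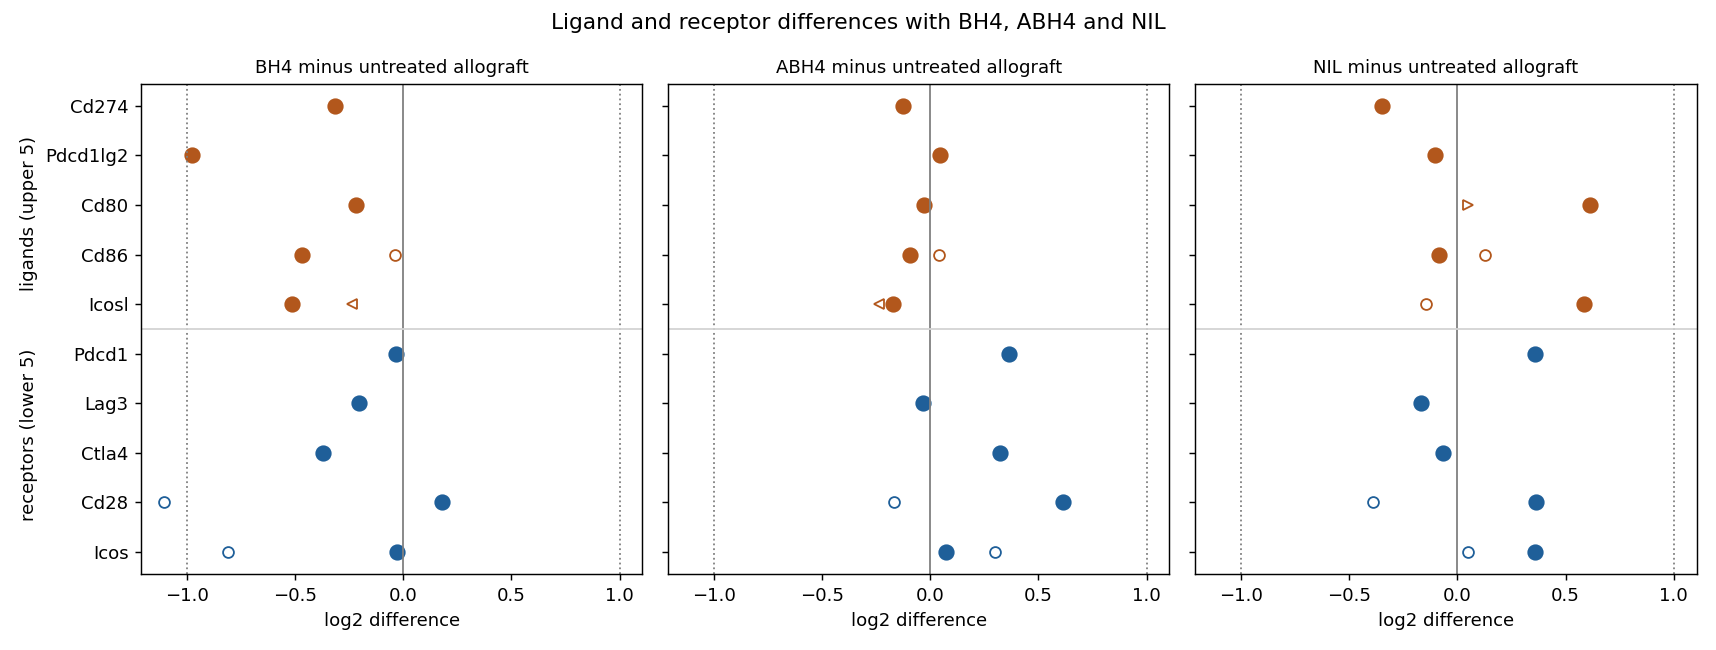
Log2 difference of each gene for BH4, ABH4 and NIL, each minus the untreated allograft, with 1 array per group and the same symbols and 2-fold lines as the plot of CsA differences. All filled symbols lie within 2-fold, and the open symbol of Cd28 with BH4 is at -1.11.

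Set against the syngraft, 7 of the 10 genes were at least 2-fold higher with ABH4 (7.07% of all genes), 7 with NIL (5.95%) and 6 with BH4 (6.15%), and 0 were lower in each (4.58%, 4.45% and 3.5% of all genes in the same order). All 3 comparisons share the syngraft array with that of the untreated allograft. The gene that made the difference in count was Pdcd1lg2, at 3.74-fold with ABH4, 3.37-fold with NIL and 1.84-fold with BH4. With the floor at the 50th percentile the counts were 5 with ABH4, 5 with NIL and 1 with BH4, where Cd274 alone was left. Without rescaling all genes split into 700 higher and 774 lower with ABH4 in place of 876 and 568, and into 568 and 654 with BH4 in place of 762 and 434.

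ABH4 and BH4 differ by the amino group named in the label of ABH4 and were given at the same dose and interval, so this 1 pair could be set side by side. Of the 10 genes 1 was at least 2-fold higher with ABH4 than with BH4, against 0.46% of all genes, and 0 were lower, against 0.96%. Pdcd1lg2 was 2.03-fold higher with ABH4. Ctla4 was 1.61-fold, Cd28 1.35-fold and Pdcd1 1.31-fold higher, and the remaining log2 differences lay between 0.10 and 0.37. All 10 brightest probe sets were higher with ABH4, and of the other probe sets that of Icos was 2.15-fold, that of Cd28 1.91-fold and that of Cd86 1.05-fold higher, with the rest at the floor on both arrays. Cd3g was 1.44-fold and Ifng 1.84-fold higher with ABH4. Of the 7 salivary gland genes 5 were at least 2-fold lower with ABH4 than with BH4, and of the 6 fibroblast markers 3 (median log2 difference -1.03), and their part in these values was not tested. Without replicates no interval of these differences can be given, and the values do not show whether the compounds act alike or differently on any of the genes.

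The profiles of the 10 genes over the 6 arrays were compared with those of other genes by the root mean square distance of centred log2 values. Each was compared only with genes above the floor on at least as many arrays as itself, 8093 genes for Cd274 and 9158 for Pdcd1. A gene at the floor on any array, such as Ifng, could thus not be named for Cd274. The 3 genes nearest to Cd274 were the guanylate-binding protein genes Gbp6 (0.17) and Gbp2 (0.21) and xanthine dehydrogenase Xdh (0.24), where the median of the genes compared was at 1.77. They were the same 3 without the BH4 array. Nearest to Ctla4 was Tnfrsf18 (0.08), also without the BH4 array, and nearest to Lag3 was B4galnt1 (0.05), likewise. For Pdcd1 the nearest was the interleukin-18 receptor gene Il18r1 (0.15), again on both sets of arrays. Nearest to Cd86 were Hcls1 (0.10), Gimap4 (0.12) and the leukocyte phosphatase gene Ptprc (0.12), and without the BH4 array Hcls1 was kept. The genes nearest to Icos were Hebp1 (0.08) and Slpi (0.09), both kept, and to Cd28 Gpr35 (0.14) and AU020206 (0.14), of which the second was kept. For Pdcd1lg2 (Ankrd44, 0.14), Cd80 (Axin2, 0.07) and Icosl (Pmel, 0.10), 0 of the 3 nearest genes were kept without the BH4 array. These distances rest on 6 arrays that each stand for a group, and genes at the floor on the same arrays come out alike.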

How the data were processed

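The deposited table holds, per array, the signal intensities of 22690 probe sets on 6 arrays. From the values it was found that the authors had scaled the deposited intensities linearly to a common trimmed mean (200 on every array with 2% trimmed from each end). The scanner software, summarisation and background correction are not given in the sources used here. Each array was rescaled to the mean of the 6 medians over 22626 non-control probe sets, values were floored at the 30th percentile (34.8), and log2 was taken. Probe sets with 1 gene symbol (20380) were used. The 691 with several genes and the 1555 with none were left out. A gene took its probe set with the highest mean, and every other probe set of the 10 genes is reported too. Symbols were looked up by Entrez ID in RefSeq genes of GRCm38.p6, where 20351 of the 20380 probe sets matched and 0 symbols changed.

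With 1 array per group no test was made. A gene was called when at least 2-fold apart. Counts are set beside the percentage of all 12393 genes called. Named genes are the 10 members, the 2 genes furthest each way in each gene list per comparison, as far as described, the genes listed as cell type markers, and the 3 nearest genes by profile. The members and lists were chosen with earlier results of these data known. Of the genes listed, Tigit, Btla, Lck and some others were not analysed here. The steps were tested on simulated data, with changes planted only in genes more than 2-fold above the median gene. That test does not cover changes in dim genes or against the floor. Python 3.11.15, pandas 2.3.3 and numpy 2.4.6 were used. Alternatives were no rescaling of the deposited values, quantiles made equal across arrays, floors at the 10th or 50th percentile, the mean over probe sets, a 1.5-fold threshold and, chosen after seeing the data, each gene's second brightest probe set and profiles without the BH4 array.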

Additional observations from a re-analysis of the deposited data

How the results depend on the processing

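Depth here is signal over background: most receptor signals lay within a few fold of the floor, and 1 array per group limits every value. No called difference of the 10 genes changed sign, and of their single differences under the alternatives 541 moved by less than 1.5-fold and 59 by more. Only 5 of the 10 genes have more than 1 probe set. For the rest, the mean over probe sets and the second probe set repeat the main value and could not move it, which adds to the 541. Of the 59, 17 came with the second probe set and 4 with the mean over probe sets. No paired analysis was possible because each group has 1 array and no test was made.

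A floor at the 50th percentile lowered the medians against the syngraft. For untreated allograft minus syngraft they were 1.13 (ligands) and 0.92 (receptors), for ABH4 1.04 and 0.89, for NIL 1.05 and 0.76, and for BH4 0.71 (receptors). It also gave a receptor median of -0.92 for CsA minus untreated allograft, left 1 of the 10 genes at least 2-fold higher for BH4 minus syngraft in place of 6, and left 1 in place of 6 with CsA and syngraft below the other 4 arrays. The higher floor itself removes differences of dim genes. With a floor at the 10th percentile the receptor median for CsA minus syngraft was -0.59 in place of 0.00. With the second probe sets the ligand median for CsA minus untreated allograft was -0.74, 1 gene was 2-fold lower with BH4 than in the untreated allograft in place of 0, and 2 were higher with ABH4 than with BH4 in place of 1. At 1.5-fold, 1 gene was higher with CsA, 1 with ABH4 and 1 with NIL than in the untreated allograft (0 at 2-fold in each), 1 was lower with BH4, 2 were higher and 2 lower for CsA minus syngraft (1 and 0), and 2 were higher for ABH4 minus BH4. The share of all genes beyond 1.5-fold was not computed, so these counts have no background to be read against.

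Counts of all genes beyond 2-fold (higher and lower) depend on the floor. For the 30th, 10th and 50th percentile they were 852 and 596, 1295 and 1378, and 618 and 295 for untreated allograft minus syngraft. In that order of floors they were 398 and 503, 1099 and 896, and 181 and 341 for CsA minus untreated allograft, and 282 and 176, 811 and 699, and 143 and 56 for CsA minus syngraft. BH4 minus untreated allograft gave 191 and 52, 719 and 495, and 95 and 13, ABH4 gave 86 and 35, 538 and 440, and 31 and 3, and NIL gave 165 and 98, 878 and 485, and 18 and 29. Against the syngraft, BH4 gave 762 and 434, 1241 and 1187, and 531 and 210, ABH4 876 and 568, 1330 and 1334, and 607 and 304, and NIL 737 and 552, 1279 and 1118, and 465 and 349. ABH4 minus BH4 gave 57 and 119, 491 and 583, and 14 and 46. All 5 allografts were above the syngraft in 320 genes with the 10th percentile, in place of 164. With the mean over probe sets 33 genes were lower with BH4 and 108 higher with NIL than in the untreated allograft, and 37 higher for ABH4 minus BH4. Without rescaling 599 genes were higher and 327 lower with CsA and 269 and 53 with NIL than in the untreated allograft, and 654 were lower for BH4 minus syngraft.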
